A study of Mus musculus with 5 samples.

Results

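The probes described here are those lower in cultured lymphoid progenitors carrying IL7R-INS, a form of the interleukin-7 receptor, and higher in leukemic B cells carrying it, each against cells with IL7R-WT. They numbered 47 of 23473 probes on a mouse 2-colour oligonucleotide array. They were chosen by their measured values on 2 of the 5 arrays: a probe needed a signal of the cells with IL7R-WT (WT) of at least 100 above the blank spots on both arrays. It also needed a log2 ratio of the cells with IL7R-INS (INS) over WT, called M here, of at most -1 in the culture and at least 1 in the B cells. M is centred on each array's median over probes with both signals at least 100, and an M of 1 is a 2-fold difference relative to that median. Ratios on those 2 arrays are therefore a description of the choice and no test of it.

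IL7R is the chain of the interleukin-7 receptor that pairs with the common gamma chain and signals through JAK kinases and STAT5. Early lymphoid progenitors need it for survival and growth, and B cells normally lose it as they mature. Activating mutations of the receptor are known from acute lymphoblastic leukemia. The labels do not spell out INS.

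All cells came from Balb/c mice, were transduced with a retrovirus carrying IL7R-WT or IL7R-INS and were sorted and pooled before RNA extraction. The CLP culture held transduced common lymphoid progenitor (CLP) cells, kept 5 to 7 days with mSCF, hIL7, hFlt3L and OP9 stromal cells and then sorted for GFP. The B cells, sorted as IgM+B220+ around day 60, had grown from transduced CLP cells in mice irradiated with 4 Gy. The labels call the INS cells leukemic and the WT cells B cells. The KSL culture, from a stem and early progenitor fraction, was grown for 4 to 5 days with mSCF, mTPO, hIL6, hFlt3L and IL3. The T-ALL cells came from KSL cells that also carried intracellular Notch1 (ICN1) in WT and INS alike, at day 30 to 40 after transplantation into lethally irradiated recipients. The CMP cells, a myeloid progenitor fraction, were sorted around day 40 from lethally irradiated recipients of KSL cells. The WT cells are thus cells given an added receptor gene, not untransduced ones.

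Each setting had 1 array, with WT in Cy5 and INS in Cy3, and no replicate or dye swap. No value below has an error between samples, no p-value was computed, and the number of arrays limits the precision. Dye and genotype ran together on every array. A signal of at least 100 was reached by 29.5% to 32.6% of probes in WT and 36.2% to 41.5% in INS on 4 arrays. On the CMP array the shares were 17.9% in WT and 15.9% in INS. The scanner gain differed between arrays, at 36 to 38 for WT and 37 to 42 for INS. None of the files pairs a probe with a gene, and 0 of 23473 IDs matched the reference table, so neither gene lists nor cell type markers could be evaluated. In pooled cells, fewer cells of a type and less RNA per cell cannot be told apart.

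The WT signal minimum was met on both arrays by 6165 probes (26.3% of all). Of these, 183 (2.97%) were at least 2-fold lower in the INS CLP culture and 566 (9.18%) at least 2-fold higher in INS B cells. The 47 probes that did both were 0.762% of the 6165, 25.7% of the probes lower in the culture and 8.30% of those higher in the B cells. In the CLP culture their M ran from -2.39 to -1.003 with a median of -1.25, a 2.38-fold difference. In the B cells M ran from 1.02 to 7.03 with a median of 1.81, a 3.51-fold difference. The spread was therefore wider on the B cell side, where fold sizes ran from 2.03 to 131, against 2.0 to 5.22 in the culture.

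Just inside the limit in the CLP culture were M300003073 (M of -1.003), M300001755 (-1.021) and M200000730 (-1.031). M400012465 (-0.996), M200003189 (-0.995) and M400012323 (-0.991) lay just outside. In the B cells M400011114 (1.022), M300001267 (1.107) and M400008043 (1.119) were just inside, and M200002369 (0.991), M200014787 (0.904) and M400005113 (0.898) just outside. The WT signal in the B cells was 101 for M300016413 and 109 for M300000121, just above the minimum. It was 99 for M400013159 and 93 for M400011718, which met the ratio limits and were left out. At the limit in the culture no gap in M separated the members from the probes outside.

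The members lay in 21 of the 24 printing blocks, with at most 5 in a block, each was spotted 1 time, and 0 carried a flag other than OK on any array. IDs beginning with M4 made up 36.2% of the members, 27.0% of the 6165 probes and 36.8% of all probes. The local background beside a member's spot had a median of 52.2% of the spot's INS signal for the CLP culture and 42.4% for the B cells. Over the 6165 probes these shares were 54.3% and 47.3%.

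By their signals in the CLP culture, the KSL culture and T-ALL the members fell into 3 sets. These were formed after the values had been seen and are used for description only. In 5 members neither WT nor INS reached a signal of 100 in the KSL culture or in T-ALL. In 9 members WT and INS both had signals of at least 10000 in the CLP culture, the KSL culture and T-ALL. The other 33 lay between.

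The set dim in the KSL culture and T-ALL held the 3 probes with the highest M in the B cells and the lowest in the CLP culture. M400011281 had a signal of 34540 in WT and 8167 in INS in the CLP culture, against 131 in WT and 33392 in INS in the B cells. Its signals were 46 and 86 in the KSL culture, 30 and 54 in T-ALL and 67 and 155 in the CMP, WT before INS. The probe was thus 5.08-fold lower in the INS culture and 131-fold higher in INS B cells. M400006743 had signals of 27477 in WT and 6323 in INS in the culture, and 245 and 25952 in the B cells. On the KSL, T-ALL and CMP arrays it stayed between 8 and 82. M400006752 ran beside it, with 21221 and 5410 in the culture, 270 and 28882 in the B cells, and 6 to 82 elsewhere. Relative to the array median, M400006743 and M400006752 were 5.22-fold and 4.72-fold lower in the INS culture and 54.5-fold and 55.0-fold higher in INS B cells. For these 3 probes the WT B cells had by far the lowest signal of the 4 kinds of CLP-derived cells, with signals not scaled between arrays.

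M200000346 shared the low signals elsewhere, at 4 to 28 on the KSL, T-ALL and CMP arrays. Unlike the 3 probes above it kept a clear signal in WT B cells, at 3035, against 28189 in INS B cells, 10058 in the WT culture and 3727 in the INS culture. It was 4.78-fold higher in INS B cells and 3.24-fold lower in the INS culture. M300001267 was far dimmer, with 313 and 167 in the culture and 128 and 536 in the B cells, WT before INS. Of the 5, M400011281 alone reached 100 in the CMP, where it was 2.61-fold higher in INS. That rested on signals of 67 and 155, and with a floor of 100 on the signals its M fell from 1.38 to 0.81. With the local background subtracted it was 0.22.

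The set with signals of at least 10000 held M400008863, M400012458, M400007629, M400012322, M400007165, M400008865, M400000066, M300015433 and M400012694. IDs beginning with M4 made up 8 of the 9. Their WT signal was 27621 to 57134 in the CLP culture, 18638 to 48251 in the KSL culture and 23693 to 62475 in T-ALL, but 4680 to 14729 in the B cells. In INS the B cells had the highest signals before any scaling between arrays, 35181 to 65486, against 12546 to 21106 in the CLP culture. Relative to the median signal of the 6165 probes in that channel, the CMP was highest by the set's median. There the set's median log2 INS level was 8.19, against 6.32 in the B cells and 4.93 in the CLP culture. M400000066 and M400012694 went the other way, at 4.405 and 3.27 in the CMP, against 5.81 and 5.633 in the B cells. M400007165 and M400012458 were saturated in INS B cells, at the top of the scanner scale, so their differences there are at least 2.29-fold and at least 3.05-fold. No other probe was saturated on any array. M over the set had a median of -1.32 for the culture and 1.61 for the B cells.

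A low M was common among bright probes in general. Over the 85 probes with a WT signal of at least 20000 in the CLP culture, the median M was -0.91 and 35.3% were at least 2-fold lower. In the KSL culture the median M of such probes (99 of them) was -0.77, and the set's values ran from -1.06 to -0.46. With loess, which removes a bend of M along the signal, the set's median M in the CLP culture was -0.67, and 1 of its 9 members, M400008863, kept the choice. In the B cells the same setting gave a median of 2.12, with 9 of 9 at least 2-fold higher. The 2-fold difference in the culture was thus lost with loess for 8 of these 9 members, and the one in the B cells for 0.

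Of the 33 other members, 33 reached a signal of 100 in T-ALL, 31 in the KSL culture and 19 in the CMP. Their WT level, given as log2 of the signal over the median signal of the 6165 probes in that channel, had a median of 1.97 for the CLP culture, 1.02 for T-ALL, -0.31 for the KSL culture and -0.55 for the B cells. In INS the medians were 0.72 in the CLP culture, 0.93 in T-ALL, -0.29 in the KSL culture and 1.56 in the B cells. On this scale the WT culture was above the INS culture and the INS B cells above the WT B cells, as the choice requires, while their medians differed by little in the KSL culture and in T-ALL.

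M300006321 was an example with strong signals on all arrays. Its signals were 10111 in WT and 5928 in INS for the CLP culture, 936 and 16930 for the B cells, 8661 and 14375 in the KSL culture, 14547 and 15111 in T-ALL, and 12803 and 9114 in the CMP. Before scaling between arrays only the WT B cells were far from the rest, and INS was 9.30-fold higher in the B cells. As log2 over the median signal of the 6165 probes, WT was lowest in the B cells (1.453) and highest in the CMP (6.464). In the culture its M was -0.75 with loess, short of the limit, and -1.42 with the local background subtracted. M300003073 had signals of 1719 and 1031 for the CLP culture, 110 and 1995 for the B cells, 1100 and 1767 in the KSL culture, 1417 and 1992 in T-ALL, and 773 and 265 in the CMP, WT before INS. It was 9.33-fold higher in INS B cells, again from a low WT signal.

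Further members of this set showed the same contrast at lower or middle signals. M200001679 had B cell signals of 435 in WT and 5934 in INS, 7.02-fold higher, and culture signals of 2264 and 1222. M200000157 had 842 and 9611 in the B cells, 5.87-fold higher, and 6816 and 3783 in the culture. M200009518 had 2827 and 14910 in the B cells and 10572 and 4617 in the culture. The M of these 3 probes in the KSL culture was 0.03, -0.13 and 0.01, close to the array median. In T-ALL it was -0.29, 0.64 and 0.24, each within 2-fold. In the CLP culture M200000157 missed the limit with loess (M of -0.97) and with the local background subtracted (-0.6). M200001679 and M200009518 met it in both settings.

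M200006491, M200001318 and M300009186 also had clear signals on at least 4 arrays. M200006491 had 5970 in WT and 3486 in INS in the culture, 1700 and 13691 in the B cells, 2462 and 4296 in the KSL culture, 2092 and 2880 in T-ALL, and 4021 and 5211 in the CMP. M200001318 had 2278 and 1177, 791 and 4595, 494 and 1213, 958 and 1298, and 640 and 653, in the same order of arrays. M300009186 had 2849 and 1365, 267 and 1712, 695 and 1490, 1639 and 1531, and then 18 and 13, too low to compare in the CMP. For M200006491 and M200001318 the WT signal in the B cells was lower than in the culture but well above the minimum, so both sides of the ratio were measured above the floor. With loess and with the local background subtracted, M200006491 missed the limit in the culture (M of -0.93 and -0.96). M200001318 and M300009186 met it in both settings. M200002522 and M300016413 shared an M of 0.99 in the CMP, just under 2-fold higher, with CMP signals of 1412 and 2484 for M200002522 and 932 and 1644 for M300016413.

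The order of WT levels over the 5 arrays was counted for all 47 members, with each array scaled by its 75th percentile. The lowest WT level lay in the B cells for 22 members (46.8%), against 29.0% of the 6165 probes. The highest lay in the CLP culture for 23 members (48.9%), against 10.8%. In 0 of 47 members was the WT level highest in the B cells or lowest in the CLP culture. The choice itself favours this order, since a low WT signal in the B cells raises M there and a high WT signal in the culture lowers it. With the median of the 6165 probes as the scale, the counts were 20 and 25.

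The INS B cells were then set against the WT cells of the 4 other arrays on that second scale. The INS level in the B cells lay within the range of these 4 WT levels for 33 members and above it for 12 (25.5%), against 12.3% of the 6165 probes. The WT level in the B cells lay within the range for 27 and below it for 20 (42.6%), against 22.4%. In the CLP culture the WT level was above all other WT levels for 25 members (53.2%), against 11.8%. The INS level of the culture was within that range for 36. The choice used the WT and INS signals of both arrays, so these shares too describe the choice, and nothing is read from their distance to the other probes.

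The KSL culture, T-ALL and the CMP played no part in the choice. A member was compared there when WT or INS reached a signal of 100, which held for 40, 42 and 29 of the 47. The median M of these members was -0.16 in the KSL culture, -0.42 in T-ALL and -0.29 in the CMP. Over the 6165 probes, as far as they were measured there, it was 0.00, 0.01 and -0.14. Without the 9 bright members the medians were -0.08, -0.27 and -0.32.

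In the KSL culture the 31 measured members outside the bright set were close to the array median, with a median M of -0.08. The 9 bright members were all below it, with a median M of -0.86. The 99 probes with a WT signal of at least 20000 there had a median M of -0.77. Of 40 measured, 39 were within 2-fold, 0 were at least 2-fold higher (0.246% of the 6165 probes measured there were) and 1 was lower (0.279%). Of all probes measured there, 0.514% were higher and 0.195% lower. Without centring the split of members was 13 higher and 0 lower, as this array's median ratio before centring was 1.01. The median over probes with both signals at least 100 was thus itself 2-fold higher, and shares over all probes were not computed without centring. The lower one was M400008863, with signals of 34535 in WT and 33240 in INS and an M of -1.06. It is a bright member, and with loess no member was 2-fold lower. The highest M was 0.41, for M400014193, with 79 in WT and 211 in INS. The KSL culture had little spread in general, with an SD of M of 0.28 over 7654 probes against 0.94 over 6673 in the B cells.

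In T-ALL 9 of 42 measured members (21.4%) were at least 2-fold lower in INS, against 1.05% of the 6165 probes measured there and 1.38% of all probes measured. At least 2-fold higher were 3 (7.14%), against 2.22% and 4.29%. Without centring the split was 9 higher and 8 lower, as this array's median ratio before centring was 0.87. For that setting shares over all probes were not computed. Of the 9 lower members, 7 belonged to the bright set. They were M400007165 (M of -2.41), M400008863 (-2.33), M400012458 (-2.29), M400007629 (-2.22), M400012322 (-2.11), M400008865 (-2.0) and M400000066 (-1.07). With the local background subtracted M400000066 turned to 2.50 and M400012322 was at -0.69, and M400000066 was at -0.65 with loess and -0.20 without centring. The first 6 had signals of 42982 to 62475 in WT and 17943 to 21579 in INS.

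Near the top of the scale low ratios were frequent on this array too. Of 77 probes with a WT signal of at least 20000 in T-ALL, 22.1% were at least 2-fold lower and the median M was -0.66. The 11 probes at 40000 or more that were no members had M of -1.96 to -0.77. With loess the bright set's median M in T-ALL was -1.67, and 6 of its 9 members were still at least 2-fold lower. Of the 17 lower probes with WT signals of at least 20000, 10 were no members. Of these 10, 10 had M below 0 in the CLP culture and 3 had M above 0 in the B cells. The 60 other probes with WT signals of at least 20000 were not lower in T-ALL. Of these, 60 had M below 0 in the culture and 8 had M above 0 in the B cells. They were not matched in brightness to the lower probes, as 14 of the 17 probes at 40000 or more were lower. M400012323 and M400012465, just outside the limit in the culture, were at -1.96 each in T-ALL and at 1.80 and 1.69 in the B cells. Their profile was close to that of the 6 brightest members in T-ALL, whose M was 1.19 to 2.02 in the B cells and -1.06 to -0.66 in the KSL culture. M400012323 and M400012465 were at -0.54 and -0.58 there. The files used here do not tell whether these probes share a target.

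Away from the top of the scale 2 members were lower in INS T-ALL, 6.06% of the 33 measured with WT signals under 20000, against 0.773% of the 6165 probes measured there under the same limit. M200001805 had signals of 463 in WT and 84 in INS in T-ALL, a 10.1-fold difference. In the CLP culture it had 4051 and 1652, and in the B cells 258 and 7959, which is 15.9-fold higher in INS. In the KSL culture (10 and 25) and the CMP (23 and 16) it had no signal to compare. INS T-ALL and INS B cells thus went in opposite directions for this probe. M200012963 had signals of 4047 and 1753 in T-ALL, a 4.23-fold difference, with 1143 and 590 in the culture and 233 and 2095 in the B cells.

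The 3 members higher in INS T-ALL were M200015288, M200000473 and M400011114. M200015288 had 98 in WT and 829 in INS (4.62-fold higher) in T-ALL. In the B cells it had 204 and 10524, which is 26.5-fold higher, and in the CLP culture 6109 and 2328, which is 3.15-fold lower. M200000473 had 449 and 2338 (2.84-fold higher) in T-ALL, 175 and 1110 in the B cells (3.26-fold higher) and 2164 and 826 in the culture (3.15-fold lower). It stayed at 12 and 23 in the KSL culture. M400011114 lay at the 2-fold line in T-ALL (2.02-fold, with 109 and 403) and in the B cells (2.03-fold, with 480 and 1896). In M200015288 and M200000473, INS was thus higher in T-ALL and in the B cells and lower in the CLP culture.

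In the CMP 4 of 29 measured members (13.8%) were at least 2-fold lower in INS and 2 (6.90%) higher. Of the 6165 probes measured there, 16.5% were lower and 14.7% higher, and of all probes measured 16.0% and 15.5%, so the members' shares were not above those of other probes. With loess the split of members was 2 higher and 7 lower. The shares over all probes were not computed with loess, so the comparison of shares covers the rule's ratios only. The lower members were M400012694 (3695 in WT and 1003 in INS, M of -1.71), M200013735 (180 and 43), M300003073 (773 and 265, M of -1.37) and M300015433 (34284 and 13942, M of -1.12). With the local background subtracted M300015433 was at -0.13. For M200013735 the INS signal was under the floor of 50, and the difference is at least 3.19-fold. M300013029 was higher, with 967 in WT and 2460 in INS (2.87-fold), and had 3675 and 6658 in the KSL culture, where its M was -0.15. The other higher member was M400011281, described above.

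The choice of members depended on how the ratios were made. In the authors' deposited table, 47 of 47 met the limits on both arrays. With loess 32 of 47 did, with the local background subtracted 26, and with normexp (a background model) and loess 25. With the local background subtracted, M400006743 (M of -2.26 and 6.02) and M400011281 (-2.47 and 6.8) passed both limits of M but were not kept. The only other limit is the WT signal minimum. Without centring 23 of 47 met the limits, 23 being past the one in the CLP culture and 47 past the one in the B cells. Across the 4 settings other than the one without centring, 17 members were kept in all of them, among them M200000346, M400006752, M200015288, M200001805, M200006136 and M400014193. M400011281 and M400006743 were kept in 3. Another 7 were kept in 1 setting, the authors' table. They were M200000157, M200006491, M300013029, M400000066, M400008865, M400011114 and M400012322. The direction in the B cells was the same for 47 of 47 in each of the 4 settings. In the CLP culture it was the same for 47 in 3 of them and for 43 with the local background subtracted, where M300001755, M300013029 and M400012322 were among those that turned. M200006136 had culture signals of 764 and 258 and B cell signals of 148 and 1009, WT before INS. For M400014193 they were 457 and 142, then 186 and 1185. In the KSL culture and T-ALL, the M of M200006136 was 0.14 and -0.43 and that of M400014193 was 0.41 and 0.18. Both stayed within 2-fold on those 2 arrays.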

How the data were processed

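The members, the sets and the settings were chosen with earlier results of these data known. Per the file headers, the deposited scanner files hold a median intensity per spot at 635 nm (Cy5, WT per the labels) and 532 nm (Cy3, INS), with normalization and background fields empty. The median of 2736 blank spots was subtracted per channel, signals were floored at 50, and log2 ratios of 532 over 635 were centred on the median over probes with both signals at least 100. The median subtracted was -0.17 for the CMP, 0.27 for the CLP culture, 0.87 for T-ALL, 0.96 for the B cells and 1.01 for the KSL culture. Only 1 probe had 2 spots, which were averaged. A ratio with a signal under the floor is a bound.

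In the authors' deposited value table the log2 ratios come with scale, centring and direction unstated. These values followed M with a Pearson r of 0.990 to 0.999 and a slope of 0.98 to 1.0 across probes, the same direction and log base, and column medians were 4.3e-06 (CMP), -3.8e-05 (CLP culture), -1.8e-05 (T-ALL), -4.8e-05 (B cells) and 0 (KSL culture). The authors' background and filter stay unknown, and 4232 to 8850 probes were empty.

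Named probes were the 10 members with the largest smaller side of M on the 2 arrays, the 5 highest and lowest on each other array with both signals at least 100, the 5 with the highest lower WT signal, those nearest the limits, and those 2-fold apart one way on 2 or more other arrays. Some of these appear only in counts. M200001679, M200012963, M200013735, M300006321 and M400008865 fell outside this rule and were named after their values had been seen. Loess (span 0.3) and normexp (offset 50) used limma 3.58.1 in R 4.3.3. The calculation of the choice was tried on simulated data with shifts well beyond the limits and no bend of M along the signal. That checks the calculation only and says nothing about the members. With 1 array per setting no test was possible, and no paired analysis was possible.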

Additional observations from a re-analysis of the deposited data

Results flagged for a closer look

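Several members went one way in INS in 1 setting and the other way in another. At least 2-fold lower in INS T-ALL and higher in INS B cells were 9 members, of which 7 were bright ones. They were 21.4% of the members measured in T-ALL, where 1.05% of the 6165 probes measured were lower. At WT signals of at least 20000 there, 7 of 9 members (77.8%) and 22.1% of 77 probes, members included, were lower. At 40000 or more 14 of 17 probes were lower, with 6 members among the 17. Lower in INS in the CMP and higher in INS B cells were 4 members (13.8%, against 16.5% of the 6165 probes measured there). For the KSL culture and the B cells it was 1 member (2.5%, against 0.279%). At least 2-fold higher in INS T-ALL and lower in the INS CLP culture were 3 members (7.14%, against 2.22% higher there), and 2 in the CMP (6.90%, against 14.7%). In the CMP the members' shares were thus not above those of other probes. The sides in the B cells and the CLP culture were fixed by the choice, and each difference between settings comes from single arrays, so the difference was not tested.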

How the results depend on the processing

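The number of members was 47. It was 25 with normexp and loess, 19 with a WT signal minimum of 500 and 11 with a limit of M at 1.5 either way; the authors' value table gave 69 and loess 40. Without centring the median M was 2.77 in the B cells, 0.85 in the KSL culture and 0.45 in T-ALL. In the KSL culture, 13 members were then 2-fold higher and 0 lower. The lower count there was also 0 with loess, with normexp and loess, and without the 9 bright members. In T-ALL, the count of higher members was 0 with the WT minimum of 500, 6 after subtracting the local background and 9 without centring. The lower count in T-ALL was 2 without the bright members. In the CMP the higher count was 1 with a floor of 100, with normexp and loess and with the WT minimum of 500. The lower count in the CMP was 7 without centring and with loess, and 2 without the bright members, with the WT minimum of 500 and after subtracting the local background. Shares over all probes were computed with the rule's ratios only, so the counts under other settings have none beside them. The cause of these changes was not tested, except that fewer members enter with the WT minimum of 500 and without the bright set. With the local background subtracted, 4 of 86 named ratios turned: M300001755 (1.86), M300013029 (0.21) and M400012322 (0.29) in the CLP culture and M400000066 (2.50) in T-ALL. Of all 602 values of named ratios under the other settings, 535 stayed within 1.5 times in fold and 63 moved further without turning. The floors of 25 and 100 and the authors' table kept 86 of 86 each, while 46 of 86 moved without centring. The floors could not change ratios in the CLP culture and the B cells, as all members had both signals at 100 or more there. The total of 535 is therefore no measure of how stable the ratios are. Leaving out the bright members and scaling WT levels by a median were added after seeing the data. The CMP array was the dimmest and limits the members compared there. No paired analysis was possible because each setting has 1 array and no replicate.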
